A study of Mus musculus with 18 samples.

Results

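The miR-30 family was followed through 18 small RNA libraries of mouse cells in which the miR-17~92 cluster was present at different levels. Its members were taken by name, mmu-miR-30a-5p and mmu-miR-30a-3p, mmu-miR-30b-5p and mmu-miR-30b-3p, mmu-miR-30c-5p and mmu-miR-30c-2-3p, mmu-miR-30d-5p and mmu-miR-30d-3p, and mmu-miR-30e-5p and mmu-miR-30e-3p. These are 10 mature miRNAs of 1359 listed in at least 1 of the tables without spike-in scaling, and the species prefix mmu is left out below. All 10 were listed in all 3 sets of libraries. In mouse embryonic fibroblasts (MEF) miR-17~92 was overexpressed (OV), floxed and intact (fl/fl) or deleted (d/d), with 3 libraries in each group. The tables name them OV1, OV2 and OV4, FL3, FL4 and FL5, and DEL1, DEL2 and DEL3. A second MEF set compared overexpressed miR-290~295, a cluster typical of mouse embryonic stem cells (libraries miR-290 1 to 3), with an empty plasmid (Empty, E1 to E3). Both were put into d/d cells, so miR-17~92 is deleted in both groups. B cells from spleen gave 1 library each for OV, fl/fl and d/d. The labels give the Eu-myc strain, in which a Myc transgene under an immunoglobulin heavy chain enhancer is active in B cells, for every library, and the series text calls the B cells isogenic. No age, promoter of the overexpressed cluster, clone or pooling is stated, and nothing says whether replicates were separate cultures, so the p-values measure only the spread between libraries, which may be technical.

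The miR-30 hairpins give a 5p arm with 1 shared seed, the bases by which a miRNA pairs with its messenger RNA targets, so the 5p arms can repress overlapping sets of genes. The 3p arms are the opposite strands of the same hairpins and carry other seeds. The family is abundant in many adult tissues, is known for restraining transitions between epithelial and mesenchymal states, and has members among the miRNAs that MYC represses. A MYC-activated polycistron, miR-17~92, holds none of its hairpins.

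RefSeq holds mature sequences (GRCm38.p6) for 6 of the 10 members. They are shown because the family is defined by the shared seed and because single bases separate some of its members. Capitals mark the seed, bases 2 to 8 from the 5′ end. The 5p arms share the seed GUAAACA:
miR-30a-5p: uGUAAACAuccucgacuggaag
miR-30c-5p: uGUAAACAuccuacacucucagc
miR-30e-5p: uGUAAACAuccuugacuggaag
Among the 3p arms, miR-30a and miR-30e share one seed, and the 3p arms of both miR-30c hairpins share another:
miR-30a-3p: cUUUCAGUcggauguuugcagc
miR-30e-3p: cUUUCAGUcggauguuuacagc
miR-30c-2-3p: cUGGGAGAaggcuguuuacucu
miR-30c-1-3p: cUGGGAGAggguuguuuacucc
Counting from the 5′ end, miR-30a-5p and miR-30e-5p differed by 1 base, C13U, and miR-30a-3p and miR-30e-3p by G18A. The 3p arm of the other miR-30c hairpin, miR-30c-1-3p, which was not a member but is given for comparison, differed from miR-30c-2-3p at 3 positions (A9G, C12U and U22C). The seed GUAAACA was present in 4 of 1679 mature mouse miRNAs in the table, which holds no arm of miR-30b or miR-30d. The fourth was miR-384-5p, which was listed in none of the sets of libraries. How reads that match a pair of members equally well were counted is not known here.

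The 6 hairpins lie at 3 loci of the reference (GRCm38). Mir30a (chr1:23272269-23272339, plus strand) is intergenic, and Mir30c-2 (chr1:23291701-23291784, plus strand) lies 19.4 kb from it in an exon of the lincRNA gene Gm27028. On chromosome 4, Mir30c-1 (chr4:120769534-120769622) and Mir30e (chr4:120772606-120772697) lie 3.0 kb apart on the minus strand in introns of Nfyc, the gene of a subunit of the transcription factor NF-Y. On chromosome 15, Mir30b (chr15:68337415-68337510) and Mir30d (chr15:68341208-68341289) lie 3.7 kb apart on the minus strand in exons of noncoding genes, Gm26621 for Mir30b and Gm20732 and Gm37296 for Mir30d. By a limit of 10 kb the last pairs are clusters and the chromosome 1 pair is not. As both miR-30c hairpins give the same 5p arm, miR-30c-5p cannot be assigned to a locus.

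The libraries followed their labels. For miR-92a-3p, a member of miR-17~92, MEF had 1326 to 1594 normalized counts in d/d libraries, 60191 to 90491 in fl/fl libraries and 354688 to 437911 in OV libraries. In the other set miR-294-3p had 4221 to 5896 normalized counts with miR-290~295 and 10.6 to 19.1 with Empty. Counts left for miR-17~92 products were unequal there, without overlap. MiR-92a-3p had 711 ± 172 (SD, n = 3) in Empty and 147 ± 24.0 with miR-290~295, and miR-17-5p 31.1 ± 8.87 and 4.28 ± 2.64. A library held 17191892 to 24920911 listed reads in the miR-17~92 set. The miR-290~295 set was deeper, at 43164128 to 58911475 reads, and B cells shallower, at 10203586 to 10612256. All 5 mesenchymal markers checked (miR-199a, miR-214, miR-143 and miR-145a products) were present in MEF, with summed levels of 58567 to 79636 RPM (reads scaled to the same library total) in the miR-17~92 set. The 5 haematopoietic markers summed to 10380 to 18021 RPM in B cells against 219 to 529 in the miR-17~92 MEF set, where 4 of them were listed. Nearly all of the B-cell sum was miR-142a-3p and miR-142a-5p. MiR-155-5p went the other way, at 55.9 to 78.1 RPM in B cells and 218 to 528 in that MEF set. In B cells miR-150-5p had only 1.04 to 6.22 RPM, and miR-223-3p at most 1.89 and 0 in fl/fl. MiR-17-5p, another miR-17~92 product, was at 140 normalized counts in the d/d B-cell library, 56314 in the fl/fl one and 197829 in the OV one.

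By group mean the members ran in nearly the same order of level in all MEF groups, with miR-30d-5p first and miR-30d-3p last. Single libraries departed from it, as miR-30a-5p was above miR-30d-5p in E2 and E3, and miR-30b-5p below miR-30d-3p in DEL3. A normalized count is the number of reads after division by the library's size factor, and levels of different miRNAs are compared as molecules sequenced, since mature miRNAs have nearly the same length and the efficiency of capture of each was not tested. In fl/fl MEF miR-30d-5p had 360590, 372986 and 372452 normalized counts and was the 10th most abundant of 1204 listed miRNAs. MiR-30a-5p, known to repress the autophagy gene BECN1 in human cells, followed with 197851, 167865 and 195614. These levels did not overlap. After them came miR-30a-3p (46471 ± 1346 (SD, n = 3)) and miR-30c-5p (43612 ± 5257), which overlapped, as did miR-30e-3p (20762 ± 2383) and miR-30e-5p (16976 ± 1816). MiR-30c-2-3p (9661 ± 327), miR-30b-3p (6548 ± 471), miR-30b-5p (625 ± 58.6) and miR-30d-3p (346 ± 11.9) closed the order, each apart from the next. The 10 members took 3.59% ± 0.16 (SD, n = 3) of all listed reads in fl/fl, 3.76% ± 0.12 in OV and 2.35% ± 0.13 in d/d.

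**Figure D1:**
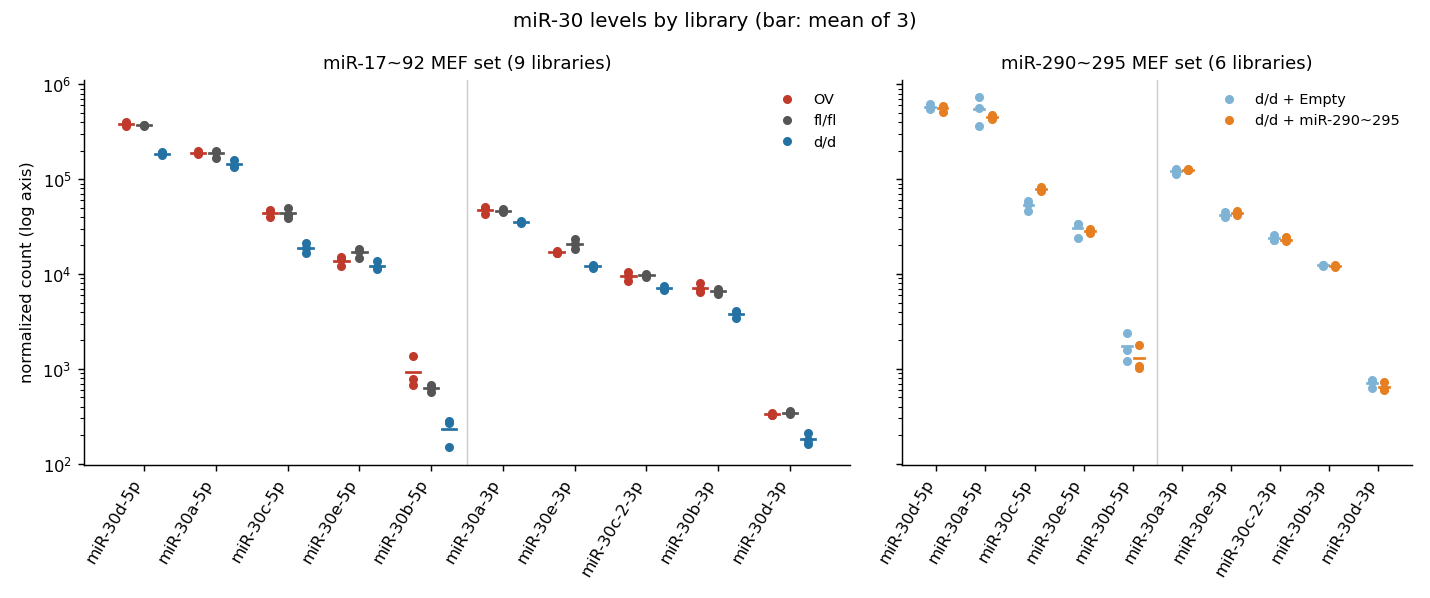
Normalized counts (log axis) of the 10 miR-30 members in each MEF library, 5p arms left of the grey line and 3p arms right of it, with a bar at the mean of the 3 libraries of a group. In the miR-17~92 set the d/d libraries lie below all fl/fl libraries for each member, while OV and fl/fl overlap for all but miR-30e-3p.

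Deletion of miR-17~92 in MEF went with lower miR-30 levels. All 10 members fell in d/d against fl/fl (limma, adjusted p under 0.05), where 27.6% of the 662 miRNAs tested were called lower and 58.3% were called in either direction. The members' median log2 difference was −0.78, against 0.02 over all 662. For each member every d/d library was below every fl/fl library, as was the case for 33.1% of all miRNAs tested. From such bulk libraries, fewer cells of a kind and less RNA per cell cannot be told apart.

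Summed markers of other cell types were lower in the same d/d libraries, without overlap with fl/fl. The muscle markers, 2 of 3 listed and nearly all of it miR-206-3p, summed to 18160 to 21650 normalized counts in d/d and 35575 to 35874 in fl/fl. The epithelial markers, 4 of 5 listed, summed to 35.6 to 57.4 and 205 to 214, with miR-200a-3p at 0 in DEL2 and DEL3. Most of this fall was miR-200b-3p, at 9.44 to 15.6 in d/d and 153 to 162 in fl/fl. MiR-205-5p went the other way without overlap, at 8.72 to 22.3 in d/d and 3.07 to 3.44 in fl/fl. The haematopoietic markers, 4 of 5 listed and nearly all of it miR-155-5p, summed to 4160 to 5815 and 8053 to 8500. Both neural markers were listed and summed to 69.0 to 74.4 and 95.2 to 131, with miR-124-3p at 0 in all d/d libraries. The mesenchymal sums, most of it miR-143-3p, overlapped, at 70080 to 79636 RPM in d/d and 58567 to 77190 in fl/fl. Within them miR-199a-3p and miR-199a-5p were lower in d/d without overlap. MiR-199a-3p had 86023 to 110256 normalized counts in d/d and 150996 to 192730 in fl/fl, and miR-199a-5p 55410 to 61308 and 67019 to 80997. MiR-143-3p, miR-214-3p and miR-145a-5p overlapped. In OV, where no member was called against fl/fl, the muscle sums (24141 to 30770 normalized counts) and the epithelial sums (72.5 to 80.4) also lay below fl/fl. The part of these cell types in the members' fall was not tested.

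The size of the fall varied among the loci, and the differences between loci were tested only by exact permutation. From chromosome 15, miR-30d-5p fell to 192658, 177950 and 187616 normalized counts in d/d, about 1.98-fold below fl/fl and with no overlap (log2 difference −0.99 ± 0.08 (SE), adjusted p = 6.22e-06). Its 3p arm miR-30d-3p, a rare strand, fell from 347, 333 and 357 to 163, 179 and 210 (−0.91 ± 0.14, adjusted p = 0.00032). MiR-30b-3p fell from 6534, 6083 and 7026 to 3475, 3862 and 4039 (−0.79 ± 0.12, adjusted p = 0.000315). The scarce 5p arm of that hairpin, miR-30b-5p, fell from 683, 627 and 566 to 267, 281 and 150 (−1.47 ± 0.29, adjusted p = 0.00154), the largest change of the 10 members and the least precise. DEL3 was its lowest library.

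From chromosome 1, miR-30a-5p fell to 135160, 137210 and 160624 (log2 difference −0.37 ± 0.11, adjusted p = 0.0109), 1.30-fold below fl/fl. MiR-30a-3p went from 45298, 47940 and 46175 to 34546, 35526 and 36511 (−0.39 ± 0.10, adjusted p = 0.00689), so both arms of this hairpin moved by nearly the same factor. MiR-30c-2-3p went from 9374, 9592 and 10016 to 6817, 6991 and 7408 (−0.45 ± 0.11, adjusted p = 0.00627). These were the smallest changes of the 10. From chromosome 4, miR-30e-5p fell from 17593, 14932 and 18404 to 11772, 11321 and 13580 (−0.47 ± 0.13, adjusted p = 0.0101) and miR-30e-3p from 18362, 23128 and 20796 to 11672, 12286 and 12455 (−0.77 ± 0.11, adjusted p = 0.000161).

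MiR-30c-5p, which is known to repress connective tissue growth factor in rat heart cells, fell from 49464, 39291 and 42082 to 21354, 18855 and 16837 normalized counts (log2 difference −1.20 ± 0.13, adjusted p = 2.78e-05), 2.29-fold. Neither of its 3p partners moved as far, miR-30c-2-3p at −0.45 and miR-30c-1-3p at −0.34 ± 0.15, the latter with an adjusted p of 0.0681. MiR-30c-1-3p was called lower with spike-in scaling (−0.77, adjusted p = 0.00152), with medians set equal (−1.06, adjusted p = 0.000248) and with a minimum mean of 100 (−0.34, adjusted p = 0.0481), and its adjusted p ran from 0.000248 to 0.16 over all settings. The ratio of miR-30c-5p to the sum of both 3p arms was 4.91, 3.81 and 3.91 in fl/fl, 4.48, 4.48 and 4.19 in OV and 2.90, 2.50 and 2.10 in d/d. The d/d libraries were the lowest. The log2 difference of this ratio, d/d against fl/fl, was −0.76 ± 0.18 (exact permutation p = 0.1, the smallest that 3 libraries against 3 allow, 0.16 after adjustment over the 32 comparisons of ratios and locus sums, which were chosen after the data were seen).

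Summed over the products that belong to 1 locus, the chromosome 15 hairpins fell by 0.98 on the log2 scale, those of chromosome 4 by 0.63 and those of chromosome 1 by 0.38 (exact permutation p = 0.1 and adjusted p = 0.16 in each). The ratio of chromosome 15 to chromosome 1 products was 1.46, 1.69 and 1.51 in fl/fl and 1.11, 1.01 and 0.939 in d/d, with a log2 difference of −0.60 ± 0.10 and the same p. In OV it was 1.66, 1.68 and 1.43, overlapping fl/fl. The summed 5p arms went from 617000 ± 18505 normalized counts (SD, n = 3) in fl/fl to 361877 ± 16605 in d/d, 1.71-fold lower, and the summed 3p arms from 83787 ± 3616 to 58713 ± 1979, 1.43-fold lower. Each gave the smallest exact permutation p of 0.1, or 0.2 after adjustment over the 8 tests of sums.

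Scaling moved the size of these changes and none of the 10 calls. The median over all miRNAs in d/d against fl/fl was 0.02 as reported and −0.39 with spike-in scaling. It was −0.70 with each library's median level, over miRNAs averaging 100 or more normalized counts, set equal. That equalizes medians of levels, not the median difference, which for such miRNAs was −0.05 without it. The members' median lay 0.79, 0.82 and 0.79 below the median over all. Scaling shifts all miRNAs of a library nearly alike, so these distances could hardly change. Calls over all miRNAs were 203 higher and 183 lower as reported, 147 and 283 with spike-in scaling, and 129 and 359 with medians set equal. Each member was called lower in d/d in all 13 other settings run, with adjusted p-values of at most 0.0487.

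**Figure D2:**
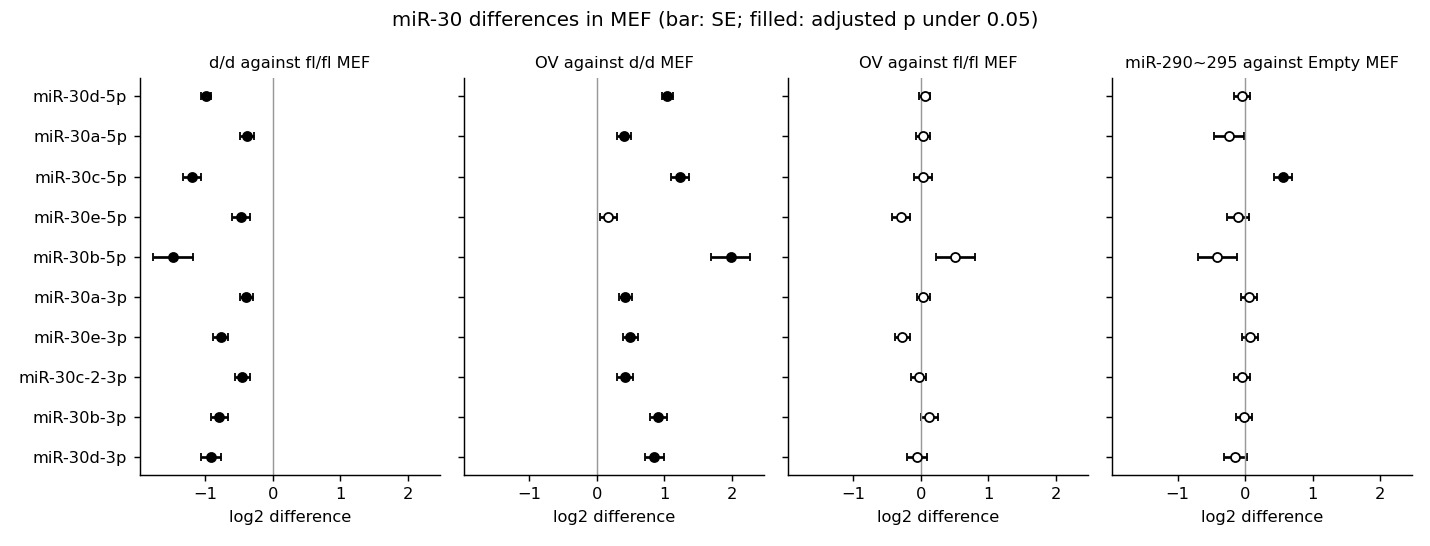
Log2 differences of the 10 members in the 4 MEF comparisons, with SE from limma as bars, filled where the adjusted p was under 0.05. All 10 points are filled and left of 0 in d/d against fl/fl, 9 are filled and right of 0 in OV against d/d, none is filled in OV against fl/fl and miR-30c-5p alone in miR-290~295 against Empty.

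Overexpression of miR-17~92 above the fl/fl level moved no member past the threshold. In OV against fl/fl MEF, 0 of 10 members were called by limma, against 31.3% of the 662 tested, and 2 members had an unadjusted p under 0.05. EdgeR's quasi-likelihood test on the recovered reads also called 0. Both arms of miR-30e had the lowest p-values. MiR-30e-3p had 17611, 16845 and 16851 normalized counts in OV, all below the fl/fl libraries (log2 difference −0.27 ± 0.11, adjusted p = 0.0796), and it was the 1 member whose groups did not overlap, as 24.2% of all miRNAs did in that direction. MiR-30e-5p had 15029, 12122 and 14247 (−0.30 ± 0.13, adjusted p = 0.101), and FL4 lay within the OV range. Summed, the chromosome 4 products (miR-30e arms and miR-30c-1-3p) stood at −0.28 ± 0.06 without overlap (exact permutation p = 0.1, adjusted p = 0.16). With medians set equal miR-30e-5p was called lower (−0.41, adjusted p = 0.0382, with 0.0382 to 0.395 over all settings).

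MiR-30b-5p had 1355, 668 and 777 normalized counts in OV, with OV1 well above every other library (log2 difference 0.51 ± 0.29, adjusted p = 0.200). The other 7 members lay between −0.06 and 0.12. MiR-30d-5p, the most abundant, had 390117, 398490 and 364745 normalized counts in OV (0.06 ± 0.08, adjusted p = 0.585), and miR-30a-5p 189423, 182467 and 200472 (0.03 ± 0.11, adjusted p = 0.824). The 5p arms summed to 636091, 639581 and 627772 in OV against 626181, 595699 and 629119 in fl/fl (exact permutation p = 0.2, adjusted p = 0.32). Calls over all miRNAs were 103 higher and 104 lower as reported, 112 and 44 with spike-in scaling, and 83 and 139 with medians set equal.

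OV against d/d uses the same d/d libraries as d/d against fl/fl. Levels of 9 of 10 members were higher in OV (limma, adjusted p under 0.05), where 26.7% of miRNAs tested were called higher and 52.4% in either direction. The members' median was 0.67, against 0.02 over all miRNAs. MiR-30b-5p was 3.96-fold higher in OV (log2 difference 1.98 ± 0.29, adjusted p = 0.00018), miR-30c-5p 2.35-fold (1.23 ± 0.13, adjusted p = 1.47e-05) and miR-30d-5p 2.07-fold (1.05 ± 0.08, adjusted p = 1.8e-06). MiR-30b-3p (0.91 ± 0.12), miR-30d-3p (0.85 ± 0.14), miR-30e-3p (0.49 ± 0.11), miR-30a-3p (0.43 ± 0.10), miR-30c-2-3p (0.42 ± 0.11) and miR-30a-5p (0.41 ± 0.11) were higher too, with adjusted p-values from 9.13e-05 to 0.01. None of the 9 overlapped between the groups, nor did 28.9% of all miRNAs in that direction. The exception was miR-30e-5p, at 0.17 ± 0.13 (adjusted p = 0.302), which was called higher with spike-in scaling and with medians set equal (0.74 and 0.78, with adjusted p-values of 0.000827 and 0.000272, and up to 0.562 over all settings). Calls over all miRNAs were 177 higher and 170 lower, 333 and 120 with spike-in scaling, and 346 and 120 with medians set equal.

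No miR-30 hairpin changed the balance of its arms past the threshold. In the fit of the ratio of 5p to 3p arm, which ran over 175 hairpins in the miR-17~92 set and 232 in the other, 0 of the 4 hairpins with both arms among the members were called in any comparison. Of all hairpins, 0.0% were called in OV against fl/fl, 9.14% in d/d against fl/fl, 6.29% in OV against d/d and 1.29% in miR-290~295 against Empty. At an unadjusted p under 0.05 there was 1, miR-30b in OV against d/d. It had ratios of 0.209, 0.0838 and 0.111 in OV and 0.0767, 0.0728 and 0.0371 in d/d, which did not overlap (log2 difference 1.07 ± 0.37, adjusted p = 0.096). Outside the fit, the log2 ratio of miR-30c-5p to miR-30c-2-3p differed by −0.75 ± 0.18 in d/d against fl/fl and 0.81 ± 0.14 in OV against d/d. With miR-290~295 it differed by 0.61 ± 0.18. None of these 3 overlapped (exact permutation p = 0.1, adjusted p = 0.16 in each). In OV against fl/fl it overlapped (0.06 ± 0.12).

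The hairpins differed among themselves in which arm dominated. In fl/fl MEF the 5p to 3p ratio was 1067 ± 44.8 (SD, n = 3) for miR-30d and 4.04 ± 0.47 for miR-30a. It was 0.83 ± 0.16 for miR-30e, whose arms overlapped in level, and 0.0961 ± 0.0134 for miR-30b, whose 3p arm was the abundant one. In B cells miR-30d also lay strongly on the 5p side (349 to 493 over the 3 libraries), but below every MEF library, the lowest being 730 in Empty. B cells had higher ratios than every MEF library for miR-30b (0.887 to 1.43) and miR-30e (2.03 to 3.65). For miR-30a the ratio was 12.3 in fl/fl, 11.9 in d/d and 5.69 in OV B cells, and the OV value lay below E3, the highest MEF library, at 5.95. Most apart was miR-30c-5p against its 3p arms, at 67.9 to 84.3 in B cells and 1.70 to 4.91 in MEF. Ratios within a library do not depend on its size factor, but the sets were processed separately, and no test was made between cell types with 1 B-cell library in each group.

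**Figure D3:**
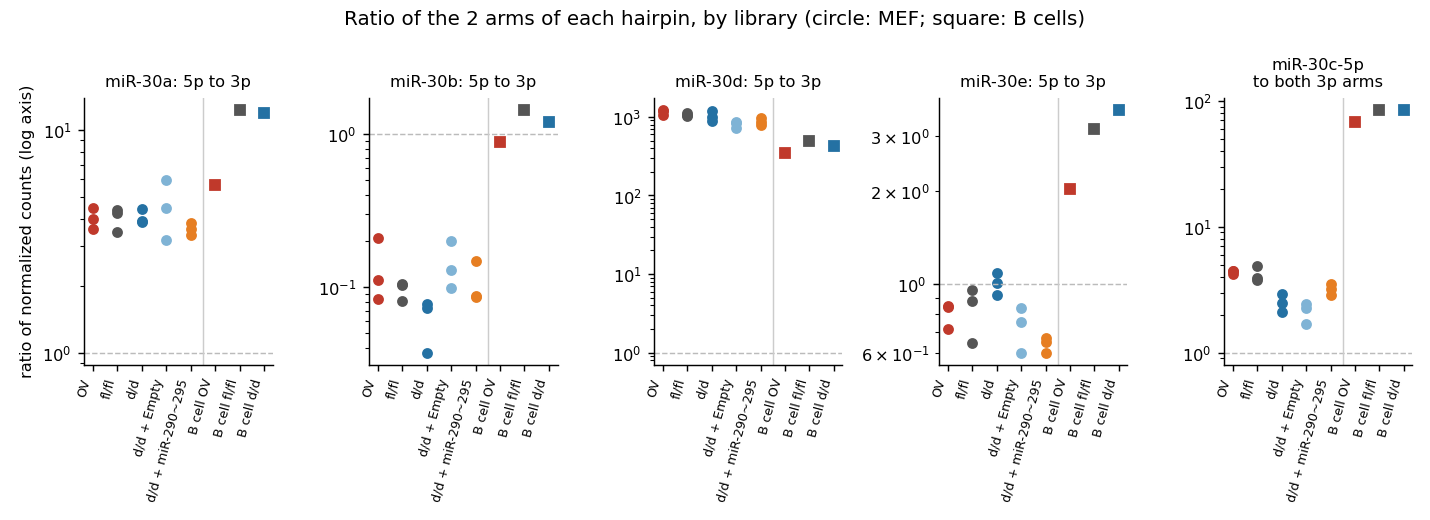
Ratio of 5p to 3p normalized counts (log axis) for each hairpin, and of miR-30c-5p to the sum of both miR-30c 3p arms, in all 18 libraries, with circles for MEF, squares for B cells and a dashed line at equal arms. MiR-30b lies below 0.21 in MEF and between 0.887 and 1.43 in B cells, and the miR-30c ratio is lower in d/d than in OV or fl/fl MEF.

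In the second MEF set miR-17~92 was deleted in both groups. There 1 of 10 members rose with miR-290~295, where 16.7% of the 840 miRNAs tested were called higher, 22.3% lower and 38.9% in either direction. This was miR-30c-5p, with 54672, 59372 and 46344 normalized counts in Empty and 78085, 74545 and 83150 with miR-290~295, 1.48-fold higher and with no overlap, as 23.6% of all miRNAs were (limma, log2 difference 0.56 ± 0.13, adjusted p = 0.00989). Its 3p partners did not move past the threshold, at −0.04 ± 0.12 for miR-30c-2-3p and 0.05 ± 0.14 for miR-30c-1-3p. The ratio of miR-30c-5p to both was 2.25, 2.43 and 1.70 in Empty and 3.20, 2.87 and 3.51 with miR-290~295, again without overlap (log2 difference 0.60 ± 0.18, exact permutation p = 0.1, adjusted p = 0.16). With spike-in scaling miR-30c-5p was at 0.08 ± 0.18 (adjusted p = 0.755, with 0.00816 to 0.755 over all settings) and 8 other members were called lower. That scaling moved the median of all miRNAs from 0.02 to −0.46. MiR-30c-5p lay 0.54 above the median as reported and 0.53 above it with spike-ins, a distance that scaling can hardly change. Calls over all miRNAs were 140 higher and 187 lower as reported, 56 and 331 with spike-in scaling, and 104 and 213 with medians set equal.

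The other 9 members had log2 differences between −0.41 and 0.08 in this comparison. MiR-30a-5p varied most among the Empty libraries, with 363053 in E1, 567592 in E2 and 731686 in E3, and had 431527, 477717 and 446839 with miR-290~295 (−0.24 ± 0.22, adjusted p = 0.428). Without E1 it was called lower (−0.51 ± 0.13, adjusted p = 0.0143, with 0.00886 to 0.98 over all settings). MiR-30b-5p, likewise lowest in E1 and highest in E3, had 1212, 1599 and 2402 in Empty, against 1074, 1797 and 1031 (−0.41 ± 0.29, adjusted p = 0.295). MiR-30d-5p had 543816, 563300 and 623198 in Empty and 510310, 575159 and 589629 with miR-290~295 (−0.05 ± 0.12, adjusted p = 0.787), overlapping throughout. The summed mesenchymal markers were also lower with miR-290~295, at 38376 to 44628 RPM against 60712 to 83343. So were the summed muscle markers, at 44534 to 52494 normalized counts against 62607 to 83554, while the epithelial, haematopoietic and neural sums overlapped. Within the epithelial sum 2 markers moved in opposite directions without overlap. MiR-205-5p was lower with miR-290~295 (9.28 to 10.6 against 47.8 to 58.5) and miR-200b-3p higher (46.6 to 69.1 against 21.3 to 36.0). The part of these cell types in the members' values was not tested.

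The make-up of the 5p arms, all with 1 seed, shifted with the loss of miR-17~92. MiR-30d-5p was 59.8% ± 2.57 (SD, n = 3) of the 5p sum in fl/fl, 60.6% ± 2.20 in OV and 51.5% ± 1.90 in d/d. MiR-30a-5p, from the locus that fell least, went from 30.3% ± 1.84 to 39.8% ± 2.49, and miR-30c-5p from 7.06% ± 0.73 to 5.27% ± 0.75. MiR-30e-5p stood at 2.75% ± 0.22 and 3.37% ± 0.18, and miR-30b-5p at 0.101% and 0.0649%. In the second set miR-30a-5p was 44.7% ± 7.19 in Empty and 40.4% ± 1.38 with miR-290~295, and miR-30c-5p 4.54% ± 1.19 and 7.04% ± 0.53. These shares restate the levels above and were not tested.

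**Figure D4:**
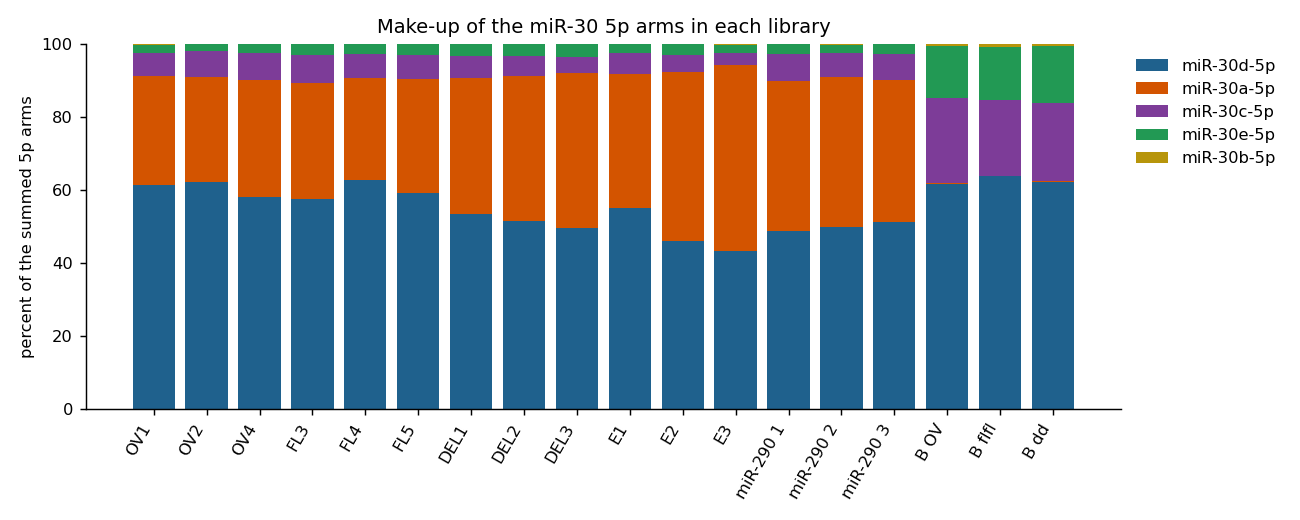
Share of each 5p arm in the summed miR-30 5p arms, in percent, for the 18 libraries. MiR-30a-5p takes 28.2 to 50.9% in MEF and under 1% in B cells, where miR-30c-5p and miR-30e-5p take its place beside miR-30d-5p.

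In B cells miR-30d-5p again led the family, with 258887 normalized counts in fl/fl, 281029 in OV and 268282 in d/d, between 61.8% and 63.8% of the 5p sum. MiR-30c-5p (20.8% in fl/fl) and miR-30e-5p (14.6%) came next, while miR-30a-5p was 0.16%, with 650 normalized counts. The chromosome 4 products (miR-30e arms and miR-30c-1-3p) outnumbered those of chromosome 1 by 112-fold in fl/fl B cells, against a ratio of 0.159 ± 0.0135 in fl/fl MEF. MiR-30c-2-3p, from the other hairpin of chromosome 1, had 3 reads in fl/fl, where miR-30c-1-3p had 1061. The family took 4.27% of listed reads in fl/fl, 3.59% in OV and 5.41% in d/d. In normalized counts the order was another, as the 10 members summed to 427354 in fl/fl, 490866 in OV and 454183 in d/d. A share of reads also depends on the other miRNAs, and miR-92a-3p had 103954 RPM in fl/fl, 307267 in OV and 3697 in d/d.

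With 1 library in each B-cell group no test was possible, and intervals cover counting error only. In d/d against fl/fl the 3 products of chromosome 1 were higher. MiR-30a-5p had 2324 normalized counts against 650, 3.58-fold (95% interval 3.29 to 3.89), and miR-30a-3p 195 against 52.8, 3.70-fold (2.76 to 5.04). MiR-30c-2-3p had 20 reads against 3, a 5.61-fold ratio of normalized counts (1.67 to 29.5). Background in this comparison was 16.2% of the 476 miRNAs kept more than 2-fold higher and 18.1% more than 2-fold lower, and miR-30c-2-3p, under the minimum mean of 10, was not among those kept.

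All 5 mesenchymal markers were higher in the same d/d B-cell library. Their summed normalized counts were 8185 in d/d against 2024 in fl/fl and 1937 in OV, with miR-143-3p at 5266, 1303 and 1088. MiR-30a-5p came to 28.4, 32.1 and 34.2 per 100 summed mesenchymal marker counts in these libraries, to 10.4 to 18.0 in the miR-17~92 MEF set, to 12.3 to 17.4 in Empty and to 21.7 to 23.7 with miR-290~295. The summed muscle markers were also higher (184 against 55.6 and 32.2), through miR-206-3p alone (179 against 39.6 and 25.5). The other muscle marker listed, miR-1a-3p, was lower (4.76 against 16.0 and 6.70). The neural marker listed, miR-9-5p, was lower too (1132 against 16620 and 11983). The part of other cells in the difference of the chromosome 1 products was not tested. MiR-30a-5p reads, which differ from miR-30e-5p by C13U, were 1.10% as many as miR-30e-5p reads in fl/fl, 1.03% in OV and 3.44% in d/d, and the part of misread bases was not tested.

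The remaining members differed little between d/d and fl/fl B cells. MiR-30d-5p was at a log2 difference of 0.05, miR-30c-5p at 0.11, miR-30e-5p at 0.19, miR-30d-3p and miR-30b-3p at 0.26, and miR-30b-5p and miR-30e-3p at −0.0042 and −0.012. In RPM these 7 lay between 0.24 and 0.52. No member had a lower level in d/d on that scale, where miR-92a-3p had 3697 RPM in d/d and 103954 in fl/fl.

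In OV against fl/fl B cells the arms parted. The summed 3p arms had 35861 normalized counts against 21263, a log2 difference of 0.75 (0.73 to 0.78), and the summed 5p arms 455005 against 406092, 0.16 (0.16 to 0.17). In RPM the 3p sum stayed higher, at 0.30, and the 5p sum was lower, at −0.29. RPM is a share of all listed reads, and miR-92a-3p of miR-17~92 alone had 307267 RPM in OV and 103954 in fl/fl. The part of these reads in the difference between the scales was not tested. MiR-30e-3p had 31709 against 18694 normalized counts (0.76), miR-30b-3p 3224 against 1988 (0.70), miR-30d-3p 805 against 525 (0.62) and miR-30a-3p 117 against 52.8 (1.14). Of the 5p arms, miR-30c-5p stood at 0.33, miR-30d-5p and miR-30e-5p at 0.12, miR-30a-5p at 0.030 and miR-30b-5p at 0.0049. The log2 of the 5p to 3p ratio, which hardly depends on scaling, differed between OV and fl/fl by −1.10 for miR-30a, −0.69 for miR-30b, −0.50 for miR-30d and −0.64 for miR-30e. Over 113 hairpins the median difference was 0.02, and 49.6% were lower in OV. Background was 6.3% of miRNAs more than 2-fold higher and 6.3% more than 2-fold lower.

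**Figure D5:**
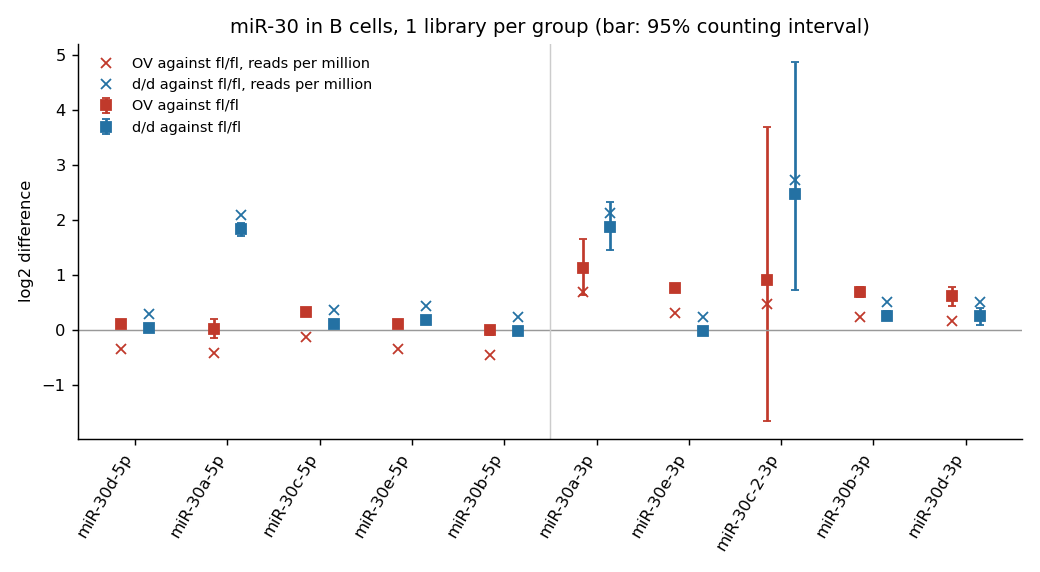
Log2 differences of the 10 members in B cells against the fl/fl library, squares from normalized counts with 95% counting intervals and crosses from RPM. The chromosome 1 products (miR-30a-5p, miR-30a-3p and miR-30c-2-3p) stand at 1.84, 1.89 and 2.49 in d/d, and in OV the 5p arms lie on different sides of 0 on the 2 scales.

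Likeness to the summed 5p arms was measured over libraries by Pearson's r on the log2 scale, as a description. Over the 9 libraries of the miR-17~92 set, among 365 miRNAs that averaged 100 normalized counts or more, miR-19a-3p (r = 0.986), miR-192-5p (0.986) and miR-18a-3p (0.985) came closest. MiR-19a-3p and miR-18a-3p are products of miR-17~92 itself, at 522 ± 46.2 and 302 ± 22.0 normalized counts in fl/fl and 10.3 ± 3.34 and 4.06 ± 0.44 in d/d, and these libraries fall into a low d/d group and a high group of OV and fl/fl, which the values share. MiR-192-5p, a miRNA of liver and gut, had 5458 ± 152 in fl/fl, 6167 ± 472 in OV and 2658 ± 169 in d/d. Over the 6 libraries of the other set, among 506 miRNAs, miR-181a-5p (r = 0.989), miR-450a-5p (0.977) and miR-425-3p (0.972) were closest.

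Other miRNAs that MYC is known to repress, 54 tested arms outside the miR-30 family from textbook knowledge (let-7, miR-15, miR-26, miR-29 and others), were called in both directions. In d/d against fl/fl MEF 18 fell and 12 rose, 55.6% of the list against 58.3% of all miRNAs tested, so the share called was near the background, with a median of −0.24 against 0.02. With spike-in scaling 30 fell and 2 rose, where 283 and 147 of all 665 tested did. With medians set equal 36 fell and 0 rose, where 359 and 129 of all 662 did. The 3 most abundant fell, let-7i-5p by 0.51 ± 0.10, let-7c-5p by 0.75 ± 0.10 and let-7f-5p by 0.67 ± 0.10, with limma adjusted p-values of 0.00181, 0.000102 and 0.000172. In OV against fl/fl 8 rose and 6 fell, 25.9% of the list against 31.3% of all. In OV against d/d 18 were higher and 7 lower, 46.3% against 52.4%. With miR-290~295 9 of 60 rose and 4 fell, 21.7% against 38.9%. None of these shares, which count both directions together, was above the background. By direction, the 18 of 54 that fell in d/d against fl/fl were a larger share than the 27.6% of all miRNAs. The 12 that rose were a smaller share than 203 of 662. In OV against d/d the 18 of 54 that were higher also exceeded the 26.7% of all. The 7 that were lower were a smaller share than 170 of 662. These differences in share were not tested.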

How the data were processed

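The 10 miR-30 members and all lists were chosen with earlier results of these data known. Per the labels' protocols, gel-purified small RNA with spike-ins was made into libraries with the NEBNext small RNA kit. The values deposited by the authors are a signal, read counts divided by 1 size factor per library, and DESeq2 is named, with no version, in the submitters' processing notes. The sources used here do not name the aligner, annotation or build. Values were whole multiples of 1 read within 0.0001 in 100% of cases, so reads were recovered. Deposited rlog columns (33) were not used.

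From the tables without spike-in scaling, miRNAs averaging 10 or more normalized counts were kept. They were fitted with limma 3.58.1 (R 4.3.3, mean-variance trend) on log2(normalized count + 1), with group as the only term. P-values carry Benjamini-Hochberg adjustment over all kept miRNAs, called under 0.05. The 9 libraries of the miR-17~92 set shared 1 spread. Ratios of the arms were fitted likewise over all hairpins whose arms share a stem name and were both kept, which leaves out miR-30c. Sums were compared by two-sided exact permutation tests, which cannot go below 0.1 with 3 libraries against 3. The sets were normalized separately and tested apart. B-cell intervals are 95% exact binomial ones and cover counting error only, since the reads carry no molecular identifiers. Alternatives were the spike-in table, medians set equal (over miRNAs averaging 100 or more), other pseudocounts (0.5 and 5) and minimums (none and 100). Further ones were edgeR 4.0.16 on recovered reads, leaving out each library and a replicate block. The fits were tested on simulated data. All members were named in each comparison, with the 3 miRNAs outside the family most correlated with its 5p sum in each MEF set and members of the miR-17~92 and miR-290~295 clusters as label checks. Sequences are from RefSeq (GRCm38.p6).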

Additional observations from a re-analysis of the deposited data

Results flagged for a closer look

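These members had every MEF library of the miR-17~92 group on one side of fl/fl and the single B-cell library on the other side on both scales. The difference between cell types was not tested, and each B-cell value rests on 1 library.

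In d/d against fl/fl all MEF libraries were lower, while the B-cell log2 difference was 1.84 for miR-30a-5p, 1.89 for miR-30a-3p and 2.49 for miR-30c-2-3p, in the library where the mesenchymal markers were also higher (8185 normalized counts against 2024). It was 0.26 for miR-30b-3p, 0.26 for miR-30d-3p, 0.19 for miR-30e-5p, 0.11 for miR-30c-5p and 0.051 for miR-30d-5p. In OV against fl/fl, miR-30e-3p was lower in all MEF libraries and stood at 0.76 in B cells.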

How the results depend on the processing

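Direction and call held for each of the 10 members in d/d against fl/fl, and for 9 in OV against d/d, under all 13 other settings. In the 4 MEF comparisons 498 of the members' other values kept direction and side of the threshold, 11 gained a call, 1 lost it and 20 changed sign. The cause of the changes below was not tested.

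With spike-in scaling, miR-290~295 against Empty had 8 members called, all lower, among them miR-30a-3p at −0.43. MiR-30e-3p was −0.41 there and not called (adjusted p = 0.065). The sum of 3p arms was −0.44 in that comparison and 0.10 in OV against fl/fl, where miR-30c-2-3p was 0.10 and miR-30d-3p 0.078. With medians set equal, OV against fl/fl had 1 member called, and miR-30a-3p, miR-30a-5p, miR-30c-5p and miR-30d-5p were −0.068, −0.075, −0.073 and −0.046. In miR-290~295 against Empty, miR-30a-3p and miR-30e-3p were −0.048 and −0.028. EdgeR put miR-30c-2-3p at 0.015 in OV against fl/fl. The sum of 3p arms was 0.0014 there as a share of reads, and −0.014 as a mean of log2 values in miR-290~295 against Empty. Hairpins called for the arm ratio numbered 5 with a pseudocount of 0.5 in d/d against fl/fl (16 as reported), 18 with a pseudocount of 5 in OV against d/d (11 as reported), and 0 with a pseudocount of 0.5 or a minimum of 100 in miR-290~295 against Empty (3 as reported).

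In B cells, RPM put OV against fl/fl at −0.42, −0.45, −0.12, −0.33 and −0.33 for the 5p arms of miR-30a, b, c, d and e, −0.29 for their sum and 0.30 for the 3p sum. In d/d it gave 0.25 for miR-30b-5p, 0.24 for miR-30e-3p, 0.34 for the 5p sum and 0.29 for the 3p sum.

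Leaving out 1 library at a time gave 124 to 236 calls over all miRNAs in OV against fl/fl (207 as reported). It gave 6 to 12 calls on the MYC-repressed list there (14 as reported) and 6 to 21 in miR-290~295 against Empty (13 as reported, 8 with the replicate block). Members called there ran from 1 to 2, the second being miR-30a-5p without E1. Arm ratio calls ran from 0 to 1 in OV against fl/fl, from 2 to 9 in d/d against fl/fl, from 2 to 11 in OV against d/d and from 0 to 3 in miR-290~295 against Empty. The 3p sum ran from −0.067 to 0.025 in OV against fl/fl, positive without OV1, and the 5p sum from −0.25 to 0.023 in miR-290~295 against Empty, positive without E3. In OV against fl/fl miR-30a-3p ran from −0.0068 to 0.12, miR-30a-5p from −0.045 to 0.073, miR-30c-2-3p from −0.11 to 0.053 and miR-30c-5p from −0.039 to 0.13. In miR-290~295 against Empty miR-30c-2-3p ran from −0.082 to 0.013 and miR-30d-5p from −0.088 to 0.016.

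The comparison miRNA miR-30c-1-3p changed sign with spike-in scaling in OV against fl/fl (0.062) and miR-290~295 against Empty (−0.43), and with medians set equal in the latter (−0.053). With 1 library left out it ran from −0.16 to 0.065 in OV against fl/fl and from −0.0066 to 0.095 in miR-290~295 against Empty. In OV against d/d it was called higher with spike-in scaling (0.83), with medians set equal (0.88) and without OV1 (0.41). Alternatives for arm ratios of single hairpins are given here as counts of calls, apart from miR-30b in OV against d/d.

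In the miR-290~295 set same-numbered libraries correlated at 0.28, 0.01 and −0.26 in their deviations from group means. Differently numbered ones correlated at −0.38 to 0.39. With 3 libraries in a group these values cannot decide whether the numbers pair them. With the replicate block 298 miRNAs were called (327 as reported), and miR-30c-5p kept its call (0.56, adjusted p = 0.0231). No paired analysis was possible because the OV and fl/fl columns of the miR-17~92 set carry no label's replicate number. Depth limits miR-30c-2-3p in B cells, with 3 to 20 reads.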
